A study of Homo sapiens with 27 samples.

Results

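Gene expression after 48 h of MET inhibition was compared between 2 cancer cell lines that depend on the receptor tyrosine kinase MET, EBC-1 and MKN-45, and a line that does not, HCC827. A response is the level of a gene with the inhibitor minus its level with DMSO, on the log2 scale of the arrays, where 1 unit is a 2-fold change. The contrast is, for each gene, the mean of the EBC-1 and MKN-45 responses minus the HCC827 response. A contrast of -1 therefore means that the gene ended 2-fold lower in the MET-dependent lines than its change in HCC827 would have left it. The comparison used 18 of the 27 arrays of the series, 3 in each of 6 groups, and 12219 genes were tested. Genes whose responses passed the test in the same direction in all 3 lines, 2280 of the 12219, are described beside it.

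EBC-1 is a human non-small cell lung cancer line and MKN-45 a human gastric cancer line, and the series' design text calls both MET addicted. HCC827 is a human non-small cell lung cancer line that served as the negative control, since its c-Met is active but it does not depend on it. Each line received DMSO, the solvent, or 1 uM SGX-523, a selective compound that blocks the kinase activity of MET, for 48 h. No time is given for the DMSO arrays and no genotype for the lines, and arrays treated for 24 h are not part of the comparison. Each arm of the contrast rests on single established lines, so MET dependence cannot be told apart from anything else in which EBC-1 and MKN-45 differ from HCC827.

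MET on an active cell signals through RAS and the ERK kinases, through PI3K and AKT, and through STAT3. ERK turns on transcription factors of the AP-1, EGR and ETS families, MYC and cyclin D1, and with them the phosphatases and Sprouty proteins that dampen the pathway. AKT holds the FOXO transcription factors outside the nucleus, and once cyclin and CDK activity falls, pocket protein complexes silence E2F targets at the start of S phase and mitotic genes through a promoter element called the CHR. HCC827 is known for an activating mutation of EGFR, a receptor that feeds the same pathways.

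The 3 arrays of a group, labelled biological replicates, correlated at 0.9947 or more. Array medians lay between 5.02 and 5.14 in EBC-1 and MKN-45 and between 5.71 and 5.73 in HCC827, so levels were compared only within a line. Epithelial markers stood above the array median for 5 of 5 genes in MKN-45 and HCC827 and for 4 of 5 in EBC-1, where CDH1, the epithelial cadherin, had a DMSO mean of only 3.20. Of 4 leukocyte markers and 6 fibroblast markers, none was above it in MKN-45, 0 and 1 in HCC827, and 1 and 2 in EBC-1. The ACTB 3 prime to 5 prime signal ratio, a sign of RNA quality, was higher with SGX-523 by 0.525 log2 units in EBC-1, 0.623 in MKN-45 and 0.252 in HCC827 (exact two-sided permutation p = 0.1 each, the smallest that 3 against 3 arrays allow). The GAPDH ratio was higher by 0.0861 in EBC-1 and 0.214 in MKN-45 (exact permutation p = 0.1 each). In HCC827 it differed by -0.0052 (exact permutation p = 0.7). The median over 45 probe sets for external controls was 0.349 and 0.327 higher with SGX-523 in EBC-1 and MKN-45 (exact permutation p = 0.1 each) and differed by -0.0773 in HCC827 (exact permutation p = 0.4). The part of these shifts in the results was not tested.

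SGX-523 changed far more genes by a large amount in the MET-dependent lines than in HCC827. In EBC-1, 8662 genes (70.9%) passed the test, 38.0% of the 12219 higher and 32.8% lower, and 1018 were at least 2-fold higher (8.33%) and 1106 at least 2-fold lower (9.05%). In MKN-45, 8728 genes (71.4%) passed it, 41.1% higher and 30.4% lower, with 1253 at least 2-fold higher (10.3%) and 881 at least 2-fold lower (7.21%). In HCC827, 4648 genes (38.0%) passed it, but only 72 were at least 2-fold higher (0.589%) and 7 at least 2-fold lower (0.0573%). With all 27 arrays in the fit 2761 passed it in HCC827, and with a pseudocount of 64 the 72 became 21. The median size of a response, over all genes, was 0.377 in EBC-1, 0.378 in MKN-45 and 0.143 in HCC827. With 12 residual degrees of freedom and a median standard error of 0.079 for a response, small differences also passed, so counts of called genes say little about size.

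The contrast itself was called for 7766 genes (63.6%), 4369 higher (35.8%) and 3397 lower (27.8%), where higher and lower refer to the MET-dependent lines relative to HCC827. Among them 762 were at least 2-fold higher (6.24%) and 740 at least 2-fold lower (6.06%). With a pseudocount of 64, which damps changes at low signal, these were 255 and 431. The median contrast over all genes was 0.05. Since a mean of 2 lines can rest on 1 of them, each line was also set against HCC827 alone. The difference from HCC827 was called for 59.9% of genes in EBC-1 and for 63.0% in MKN-45, and the difference between EBC-1 and MKN-45 for 61.6%. Both MET-dependent lines rose in 25.4% of genes and fell in 20.4% (45.8% in all). In 2096 genes (17.2%) both lines rose and both exceeded HCC827, while in 1793 (14.7%) both fell and both lay below it (31.8% together). With a contrast of at least 2-fold these were 592 and 631 genes. Of the 592 that were higher, HCC827 showed no call in 362, a rise in 161 and a fall in 69. Of the 631 that were lower, HCC827 showed no call in 328, a fall in 216 and a rise in 87. In DMSO-treated HCC827, 484 of the 631 had a mean at or above the median of the genes tested in that line, 7.78, and 183 of the 592 did.

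Across the 12219 genes the responses of EBC-1 and MKN-45 had a Pearson correlation of 0.599, those of EBC-1 and HCC827 0.384 and those of MKN-45 and HCC827 0.249. These correlations describe genes, which are not independent replicates, and each pair of lines shares no array.

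**Figure D1:**
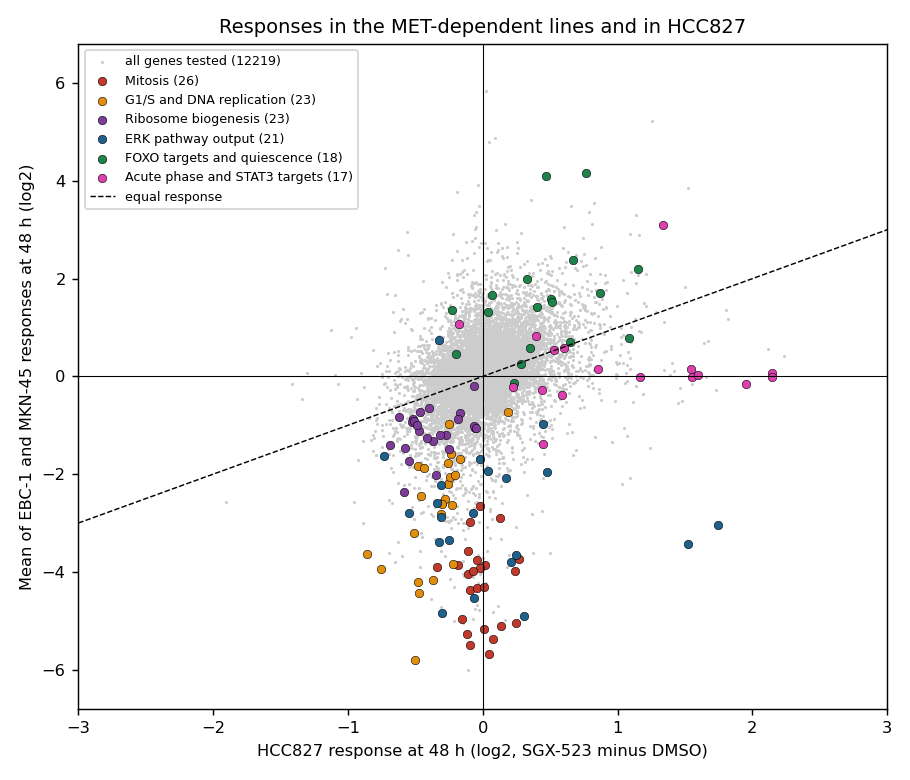
Each point is a gene, with its HCC827 response at 48 h on the x axis and the mean of its EBC-1 and MKN-45 responses on the y axis, both in log2 units, for 12219 genes in grey and the members of 6 gene lists in colour. The dashed line marks equal responses. Mitotic genes lie far below it near an HCC827 response of 0, with list medians of -4.46 in EBC-1, -3.78 in MKN-45 and -0.04 in HCC827, and acute phase genes spread to the right.

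MET itself, the target of the inhibitor, fell modestly in both MET-dependent lines. The probe set with the highest signal read 12.83, 12.75 and 12.85 with DMSO and 12.29, 11.91 and 12.32 with SGX-523 in EBC-1. Its levels in MKN-45 were 12.60, 12.78 and 12.80 with DMSO and 12.27, 12.22 and 12.13 with SGX-523. In HCC827 they were 12.20, 12.24 and 12.18 with DMSO and 12.21, 12.26 and 12.21 with SGX-523. Treated and DMSO arrays did not overlap in EBC-1 and MKN-45 and overlapped in HCC827. The contrast was -0.60 ± 0.083 (SE), adjusted p = 6.6e-07 (limma, Benjamini-Hochberg). All 6 MET probe sets read lower with SGX-523 in EBC-1 and MKN-45, by between -0.634 and -1.07 in EBC-1 and between -0.52 and -1.55 in MKN-45, and differed by between -0.0661 and 0.21 in HCC827. MST1R, the related receptor RON, had a contrast of -0.38 that came from MKN-45 (-1.23).

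The strongest contrast lay in genes of cell division. All 26 mitotic genes and all 23 genes of the G1/S transition and DNA replication were lower in the contrast, against 27.8% of all genes, with medians of -3.97 and -2.23. Cell division genes take 9 of the 10 largest contrasts by which both lines fell below HCC827, also counting genes outside both lists. These 10 were SPC25 of the NDC80 kinetochore complex (-5.89), the spindle protein gene DLGAP5 (-5.72), the proliferation marker MKI67 (-5.44), the centromeric histone gene CENPA (-5.40), the ribonucleotide reductase subunit gene RRM2 (-5.30), the DNA topoisomerase gene TOP2A (-5.30), the mitotic kinesin gene KIF20A (-5.24), the ERK phosphatase gene DUSP6 (-5.20), CDK1 (-5.17) and the condensin gene NCAPG (-5.15). The arrays measure RNA of whole cultures, so fewer dividing cells and less RNA per cell cannot be told apart.

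CDK1, the kinase that starts mitosis, shows the size of the effect. Its levels in EBC-1 were 10.57, 10.60 and 10.64 with DMSO and 4.25, 4.69 and 4.41 with SGX-523. MKN-45 gave 11.35, 11.30 and 11.40 with DMSO and 7.06, 7.25 and 7.20 with SGX-523. HCC827 gave 11.19, 11.16 and 11.15 with DMSO and 11.19, 11.16 and 11.16 with SGX-523. Every treated array of the MET-dependent lines lay more than 3 log2 units below every DMSO array of its line, whereas the HCC827 groups overlapped. The responses were -6.15, -4.18 and 0.0062, and the contrast was -5.17 ± 0.085 (SE) (adjusted p = 9.46e-25).

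The mitotic and replication genes differed in how they behaved in HCC827. Of the 26 mitotic genes, 21 had no call there, 3 rose slightly and 2 fell, against 18.7% and 19.4% of all genes. The 3 that rose were CCNB2, a cyclin partner of CDK1 (0.27), CENPF (0.24) and TOP2A (0.25), and those that fell were CDC20, the activator of the anaphase-promoting complex (-0.34), and AURKB, the mitotic kinase Aurora B (-0.30). Of the 23 replication genes, 22 fell in HCC827 as well, by a list median of -0.30, and 22 belonged to the genes called lower in all 3 lines. With a separate fit for HCC827, 5 mitotic genes rose and 9 fell, and with the 24 h arrays added to the fit 13 of the 23 replication genes were called lower there.

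RRM2, which makes deoxynucleotides for DNA synthesis, fell in all 3 lines at very different sizes. In EBC-1 it read 10.72, 10.73 and 10.74 with DMSO and 4.08, 4.26 and 4.12 with SGX-523. In MKN-45 the values were 9.87, 9.82 and 9.92 with DMSO and 5.20, 4.70 and 4.64 with SGX-523. In HCC827 they were 11.34, 11.40 and 11.33 with DMSO and 10.87, 10.82 and 10.88 with SGX-523. The groups did not overlap in any line, but the HCC827 response was -0.50 (adjusted p = 6.6e-05) beside -6.58 and -5.02. TYMS, the thymidylate synthase gene, fell by 4.06 in EBC-1, 3.62 in MKN-45 and 0.22 in HCC827. RFC3, a clamp loader subunit, had responses of -3.03, -2.18 and -0.30 in the same order, and GINS1, part of the replicative helicase, of -2.95, -2.30 and -0.23. CCNE2, cyclin E2, and UHRF1, which guides maintenance DNA methylation, were among the genes with the largest falls common to the 3 lines, with HCC827 responses of -0.86 and -0.75.

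Promoters of both lists were read from RefSeq (GRCh38.p14) to show which elements they carry, since mitotic and replication genes parted in HCC827. A promoter window covered 300 bases, 250 before the annotated start and 50 after it, and 21 of the 26 mitotic and 21 of the 23 replication genes matched the table. Below are the 250 bases before the start of 2 mitotic genes and 2 replication genes, taken from the 4 members of each list with the smallest adjusted p as examples that carry the element, after the matches were seen. Of the others, CDK1 and GINS1 held the element of their list too, and the RRM2 window held no E2F match. Capitals mark the CHR letters TTTGAA in the first pair and the E2F letters TTTCCCGC in the second, on either strand. The coordinates are chr15:59104896-59105145 on the plus strand for CCNB2, chr17:40417897-40418146 on the minus strand for TOP2A, chr18:657403-657652 on the plus strand for TYMS and chr13:33817899-33818148 on the plus strand for RFC3.
CCNB2: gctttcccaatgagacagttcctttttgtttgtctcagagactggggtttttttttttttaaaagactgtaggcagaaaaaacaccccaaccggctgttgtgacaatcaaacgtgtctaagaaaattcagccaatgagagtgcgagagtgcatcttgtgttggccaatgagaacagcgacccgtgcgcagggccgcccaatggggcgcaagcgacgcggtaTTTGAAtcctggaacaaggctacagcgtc
TOP2A: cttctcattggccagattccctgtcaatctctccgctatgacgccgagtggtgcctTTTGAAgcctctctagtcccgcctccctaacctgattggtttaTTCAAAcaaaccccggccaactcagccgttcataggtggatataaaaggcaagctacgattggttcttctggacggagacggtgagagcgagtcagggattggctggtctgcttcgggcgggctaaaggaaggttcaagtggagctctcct
TYMS: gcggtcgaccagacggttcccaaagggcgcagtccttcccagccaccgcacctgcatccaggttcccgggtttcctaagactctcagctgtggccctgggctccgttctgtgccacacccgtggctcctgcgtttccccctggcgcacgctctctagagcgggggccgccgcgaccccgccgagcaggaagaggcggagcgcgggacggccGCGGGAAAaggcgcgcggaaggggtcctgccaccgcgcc
RFC3: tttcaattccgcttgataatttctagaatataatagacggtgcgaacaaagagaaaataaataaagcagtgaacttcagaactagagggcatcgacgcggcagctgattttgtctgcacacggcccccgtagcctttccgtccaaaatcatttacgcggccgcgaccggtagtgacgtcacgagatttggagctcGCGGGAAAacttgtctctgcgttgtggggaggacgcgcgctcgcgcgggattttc

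The CHR match of CCNB2 begins 29 bases before the start, those of TOP2A 194 and 151 bases before it. The E2F match begins 39 bases before the start in TYMS and 55 bases in RFC3. Over both strands of the windows, TTTGAA was found in 15 of 21 mitotic promoters (71.4%) and in 1 of 21 replication promoters (4.76%), against 10.2% of the 10005 tested genes with a promoter and 15.6% of all 27305 promoters. An E2F pattern, TTTCCCGC or TTTGGCGC, was found in 1 of 21 mitotic promoters (4.76%) and 12 of 21 replication promoters (57.1%), against 3.53% of tested genes and 2.27% of all promoters. The CCAAT box, CCAAT, was found in 76.2%, 57.1%, 36.3% and 35.6% of the same 4 sets. No searched pattern contains another.

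With the members of both lists left out, promoters of the genes by which both lines fell at least 2-fold below HCC827 held TTTGAA in 24.9% of 241 where HCC827 showed no call and in 17.6% of 165 where it fell too. For the E2F patterns the shares were 6.22% and 10.3%. Only members of the lists were left out, so cell division genes outside both lists, such as SPC25, may remain in these sets. Among genes that were at least 2-fold higher in the contrast, 8.48% of 495 held TTTGAA and 2.42% an E2F pattern. A match describes letters in a window and is not a measured binding site.

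**Figure D2:**
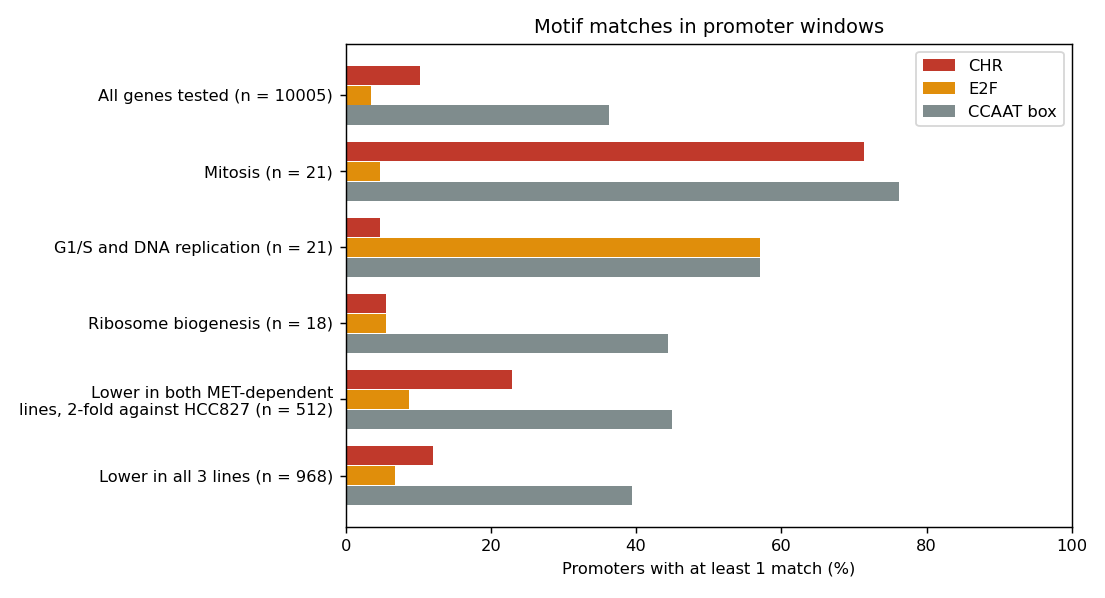
Bars give the percentage of promoter windows (x axis, from 0 to 100%) with at least 1 match to the CHR, E2F or CCAAT letters, for the sets of genes named on the y axis with their number of promoters. The CHR bar is longest for mitotic genes (71.4%) and the E2F bar for G1/S and replication genes (57.1%), against 10.2% and 3.53% of all genes tested.

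Transcripts that ERK signalling is known to drive fell in both MET-dependent lines and moved in both directions in HCC827. Of 21 genes of this output, 20 were lower in the contrast (27.8% of all genes) and 1 was higher, with a list median of -2.57. In EBC-1 20 of 21 fell (32.8% of all genes), and in MKN-45 20 fell and 1 rose (30.4% and 41.1%). In HCC827 8 rose, 7 fell and 6 had no call, while 18.7% of all genes rose and 19.4% fell. The list median in HCC827 was -0.07. With the 24 h arrays in the fit, 4 of the 21 were called higher in HCC827.

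DUSP6, a phosphatase that removes the activating phosphates from ERK, had the largest contrast of the list. EBC-1 arrays read 12.12, 12.17 and 12.06 with DMSO and 7.63, 7.66 and 7.52 with SGX-523. MKN-45 arrays read 10.87, 10.81 and 10.80 with DMSO and 5.34, 5.74 and 5.57 with SGX-523. HCC827 arrays read 8.63, 8.70 and 8.57 with DMSO and 8.92, 8.95 and 8.93 with SGX-523. The MET-dependent lines lost between 4 and 6 log2 units, while all 3 treated HCC827 arrays lay slightly above the DMSO arrays. The contrast was -5.20 ± 0.082 (SE) (adjusted p = 9.46e-25), and the HCC827 response was 0.30 (adjusted p = 0.000753). Other feedback genes followed the same contrast at smaller size, with DUSP4 at -3.05, DUSP5 at -1.67, SPRED1 at -2.73, SPRY4 at -2.57 and SPRY2 at -2.25. Among the ETS factors ETV5, ETV1 and ETV4 the contrasts were -4.54, -4.46 and -1.97, and none of these 3 was called in HCC827.

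MYC, the growth transcription factor, fell by 3.37 in EBC-1, fell by 4.22 in MKN-45 and rose by 0.21 in HCC827 (adjusted p = 0.00768), and its contrast was -4.00 ± 0.074 (SE). CCND1, cyclin D1, fell in all 3 lines, by 3.22, 2.38 and 0.55, and its contrast was -2.25. FOSL1, an AP-1 factor, also fell in all 3 and was among the 10 genes with the largest common fall, with HCC827 at -0.73. The 1 gene of the list with a higher contrast was the ephrin receptor gene EPHA4 (1.07), which rose in MKN-45 (1.31).

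The immediate early genes EGR1 and FOS fell in both MET-dependent lines and rose in HCC827. In EBC-1 EGR1 read 10.08, 10.12 and 10.02 with DMSO and 7.60, 7.60 and 7.71 with SGX-523. MKN-45 values were 8.33, 8.27 and 8.29 with DMSO and 4.52, 5.09 and 4.28 with SGX-523. HCC827 values were 8.56, 8.72 and 8.52 with DMSO and 10.27, 10.53 and 10.25 with SGX-523. Treated arrays lay below all DMSO arrays in both MET-dependent lines and above all of them in HCC827. The responses were -2.43, -3.66 and 1.75, and the contrast was -4.80 ± 0.14 (SE) (adjusted p = 6.69e-20). FOS rose by 1.52 in HCC827 from a DMSO mean of 5.35, below the array median, so the size of that rise depends on low readings. FOS fell by 0.63 in EBC-1 and by 6.22 in MKN-45, and the response of EBC-1 exceeded that of MKN-45 by 5.60. EMP1, a membrane protein gene, was also mainly a MKN-45 change (-5.88, with -1.43 in EBC-1).

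**Figure D3:**
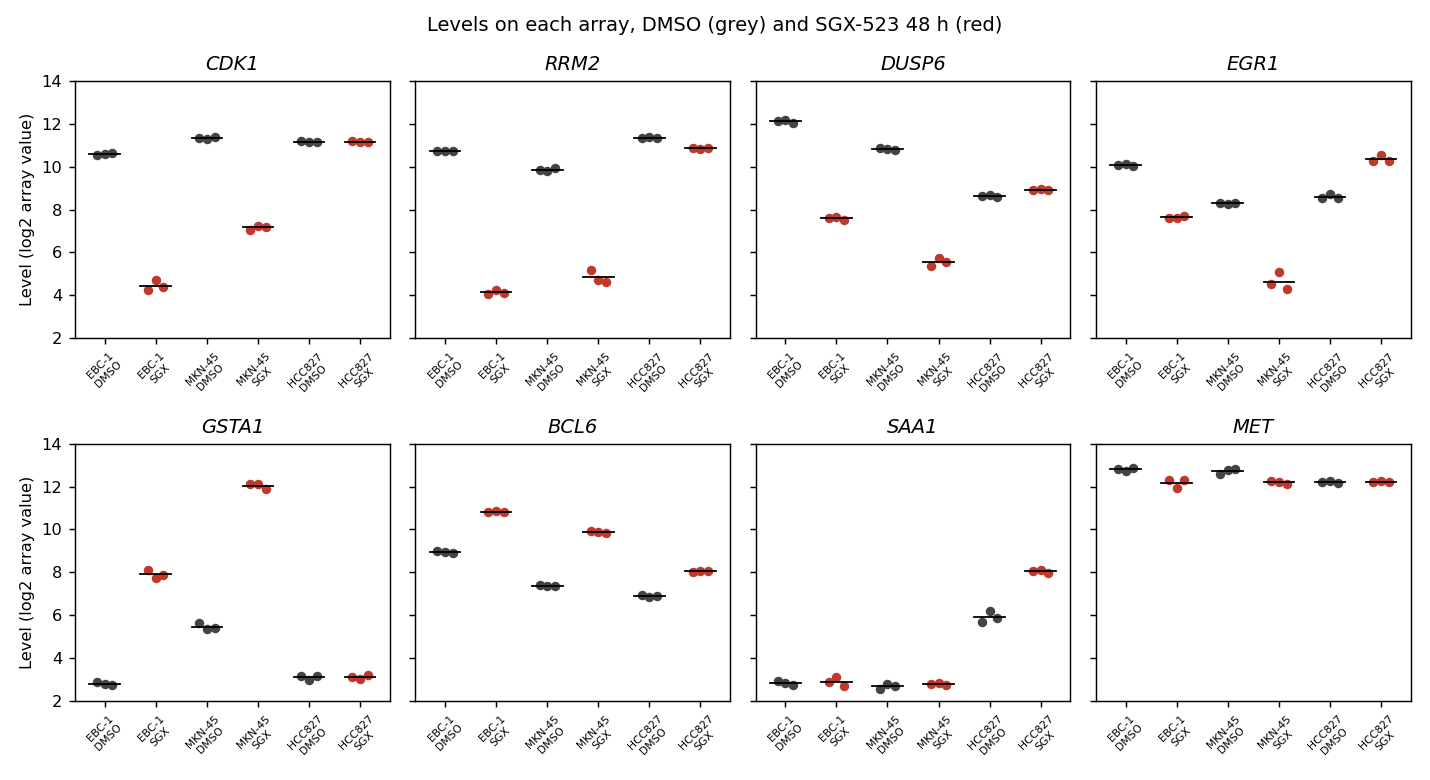
Levels of 8 genes on each array (y axis, log2 array value), in 6 groups along the x axis, with DMSO in grey, SGX-523 48 h in red and a line at the mean of the 3 arrays. CDK1, RRM2 and DUSP6 drop in EBC-1 and MKN-45, EGR1 drops there and rises in HCC827, GSTA1 rises in the MET-dependent lines, BCL6 rises in all 3 lines and SAA1 rises in HCC827.

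Opposite movement was the exception. In 401 of the 12219 genes (3.28%) both MET-dependent lines were called one way and HCC827 the other, 211 of them higher in the MET-dependent lines (1.73%) and 190 lower (1.55%). Ranked by the smallest response of the 3 lines, EGR1 was followed by GCNT3, a mucin glycosyltransferase gene (contrast -3.18), the stress cytokine gene GDF15 (-2.71), the aldolase gene ALDOC (-2.28) and the tropomyosin gene TPM2 (-1.80). GDF15 fell by 2.22 in EBC-1 and 0.72 in MKN-45 and rose by 1.24 in HCC827. In the other direction stood KLHL21, an adaptor of a cullin ubiquitin ligase (1.79), RCBTB2 (1.98), FSD1L (2.31), the ciliary gene CC2D2A (1.75) and PCLO, a gene of the presynaptic zone (3.03). KLHL21 rose by 0.88 and 0.74 in EBC-1 and MKN-45 and fell by 0.98 in HCC827.

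Genes that moved the same way in all 3 lines were 1151 higher (9.42%) and 1129 lower (9.24%). The higher ones make up 50.4% of the genes called higher in HCC827 and 37.1% of those called higher in both MET-dependent lines, and the lower ones 47.7% and 45.3%. A common direction seldom meant a common size. Median responses of the 1151 were 0.77 in EBC-1, 0.75 in MKN-45 and 0.33 in HCC827, and those of the 1129 were -0.94, -0.63 and -0.28. HCC827 had the smallest response of the 3 in 883 of the 1151 and 907 of the 1129. The contrast was called in the same direction for 905 and 935 of them and in the other direction for 17 and 4, and for 229 and 190 it was not called. A response of at least 2-fold in each line was reached by 15 genes that rose and by 0 that fell, and one of at least 1.5-fold by 115 and 46. With the 24 h arrays in the fit, 722 genes were called higher and 641 lower in all 3 lines.

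The genes with the largest common rise, ranked by the smallest response of the 3, began with N4BP2L1 (3.67, 4.04 and 1.52 in EBC-1, MKN-45 and HCC827). CFB, complement factor B, followed with 3.09, 3.09 and 1.34. HGD, an enzyme of tyrosine breakdown, rose almost equally in the 3 lines, by 1.31, 1.34 and 1.28, and its contrast of 0.043 ± 0.083 (SE) was not called (adjusted p = 0.678). ZNF204P was not called either (0.31, adjusted p = 0.0598), and ACSM3, a mitochondrial acyl-CoA synthetase gene, differed little (0.22, adjusted p = 0.0192). The other members of this group were SPINK1, TMEM178A, GBP2, BCL6 and AHRR, the repressor of the aryl hydrocarbon receptor. SPINK1, a trypsin inhibitor gene, rose in all 3 lines but far more in MKN-45 (6.77) than in EBC-1 (3.68) or HCC827 (1.25). In HCC827 the DMSO means of HGD (4.57), N4BP2L1 (3.84), ZNF204P (3.77) and TMEM178A (4.25) lay below the array median. The sizes of these HCC827 rises therefore depend on low readings. The HCC827 rises of CFB, SPINK1, ACSM3, GBP2, BCL6 and AHRR started above it. In EBC-1 and MKN-45 SPINK1 had DMSO means of 3.36 and 4.27, below the array medians. ZNF204P (4.50) and TMEM178A (3.10) started below it in EBC-1, as did N4BP2L1 (3.79) and AHRR (4.58) in MKN-45. The sizes of those rises depend on low readings too. TMEM178A also stayed below the array median in MKN-45 and passed the filter only through the treated EBC-1 arrays.

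BCL6, a transcriptional repressor and a known FOXO target, was read at 8.98, 8.97 and 8.90 with DMSO and 10.83, 10.86 and 10.80 with SGX-523 in EBC-1. MKN-45 gave 7.41, 7.38 and 7.34 with DMSO and 9.93, 9.90 and 9.83 with SGX-523. HCC827 gave 6.92, 6.84 and 6.90 with DMSO and 8.02, 8.04 and 8.07 with SGX-523. No treated array overlapped a DMSO array in any line. The rises were 1.89, 2.51 and 1.15, and the contrast was 1.04 ± 0.058 (SE) (adjusted p = 3.44e-14).

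**Figure D4:**
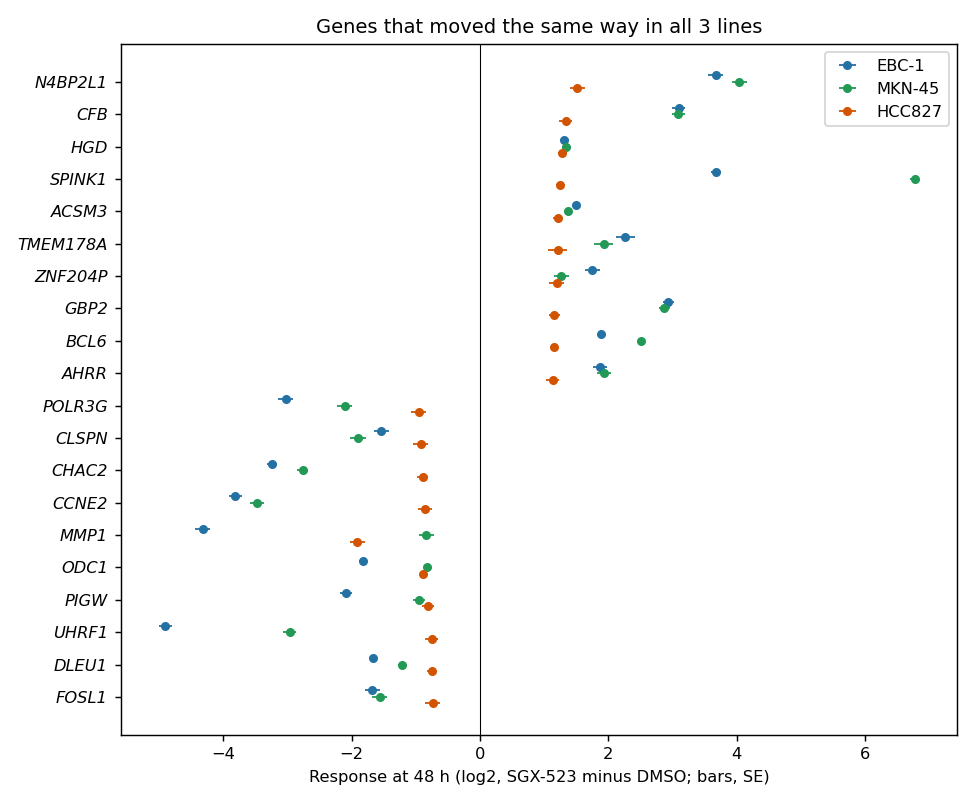
Responses at 48 h (x axis, log2, SGX-523 minus DMSO, with standard errors) of the 10 genes with the largest common rise and the 10 with the largest common fall, 1 gene per row and 1 colour per line. HCC827 lies nearest to 0 for most genes. HGD has nearly equal rises of 1.31, 1.34 and 1.28, the last from a low HCC827 DMSO mean of 4.57. In MMP1 and ODC1 MKN-45 lies nearest to 0 (-0.83 and -0.82), for MMP1 from a low MKN-45 DMSO mean of 3.65.

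Targets of FOXO factors and genes of quiescence were mostly higher in the contrast. Of 18 tested, 14 were higher in the contrast (35.8% of all genes) and 2 lower, with a median of 1.04. In HCC827 14 rose and 1 fell, against 18.7% and 19.4% of all genes, with a median of 0.43, and 12 of the 18 rose in all 3 lines (9.42% of all genes). PIK3IP1, an inhibitor of PI3K, rose by 3.83 in EBC-1, 4.35 in MKN-45 and 0.47 in HCC827 (contrast 3.62 ± 0.16 (SE)). TXNIP, which restrains glucose uptake, had responses of 2.07, 1.90 and 0.33, and INSR, the insulin receptor gene, of 2.40, 2.38 and 0.67. TP53INP1, a stress and autophagy gene, rose by 4.33, 3.98 and 0.76. FOXO3 itself rose in EBC-1 (1.85) and MKN-45 (1.50) with no call in HCC827 (0.069). KLF9 went the other way in the contrast (-0.30), with rises of 1.13, 0.43 and 1.08. IRS2, the insulin receptor substrate gene, rose in EBC-1 (3.07) and fell in MKN-45 (-0.43).

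Ribosome biogenesis genes gave common falls. All 23 tested fell in EBC-1 and in MKN-45 (32.8% and 30.4% of all genes), and 20 of 23 fell in HCC827 (19.4%). In the contrast all 23 were lower (27.8%). List medians were -1.54 in EBC-1, -0.79 in MKN-45, -0.41 in HCC827 and -0.71 in the contrast. LYAR, a nucleolar factor, fell by 2.81, 1.93 and 0.58 (contrast -1.79 ± 0.062 (SE)). BOP1, which processes the large subunit's rRNA, fell by 2.45, 1.57 and 0.35, and NOLC1, a nucleolar chaperone, by 2.05, 0.91 and 0.25. The HCC827 fall of RRP12, an rRNA processing factor, exceeded that of MKN-45 (-0.62 against -0.36, a difference of 0.26 with adjusted p = 0.00231), and its contrast was small (-0.21). NPM1, nucleophosmin, had a contrast of -0.13 and no call in HCC827 (-0.063).

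Among the genes with the largest common fall outside these lists were POLR3G, a subunit of RNA polymerase III (-3.02, -2.10 and -0.95), and CHAC2, which degrades glutathione (-3.24, -2.76 and -0.89). ODC1, the first enzyme of polyamine synthesis, fell by 1.83, 0.82 and 0.89, so that its contrast was only -0.44. MMP1, a collagenase gene, had responses of -4.32 in EBC-1, -0.83 in MKN-45 and -1.91 in HCC827. Its MKN-45 DMSO mean of 3.65 already lay below the array median, so the fall there depends on low readings. CLSPN, PIGW and the noncoding RNA gene DLEU1 complete the group, with HCC827 responses of -0.93, -0.81 and -0.75.

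Glutathione transferase and glucuronosyltransferase genes had the 3 largest contrasts among genes that rose in both MET-dependent lines. Their DMSO values lay below the array median in all 3 lines, except for GSTA1 in MKN-45, with a mean of 5.46. GSTA1, an alpha class glutathione transferase gene, was read at 2.89, 2.77 and 2.75 with DMSO and 8.13, 7.73 and 7.89 with SGX-523 in EBC-1. In MKN-45 it was read at 5.62, 5.36 and 5.41 with DMSO and 12.11, 12.13 and 11.89 with SGX-523. In HCC827 it was read at 3.15, 2.96 and 3.17 with DMSO and 3.12, 3.02 and 3.20 with SGX-523. Both MET-dependent lines gained more than 4 log2 units on every array, and HCC827 stayed below its array median in both groups. The contrast was 5.82 ± 0.13 (SE) (adjusted p = 3.57e-22). GSTA2 (4.79) and the glucuronosyltransferase gene UGT2B15 (4.76) came next. Both lay below the array median on every DMSO array and every HCC827 array and passed the filter only through the treated arrays of EBC-1 and MKN-45, so the sizes of these contrasts depend on low readings. All 3 have close paralogs that can hybridise to the same probes, so their signals may be shared.

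Of the 14 tested glutathione transferase and drug metabolism genes, 7 were higher and 6 lower in the contrast, against 35.8% and 27.8% of all genes. ALDH1A1, a retinaldehyde dehydrogenase gene, rose by 2.19 in EBC-1 and 3.09 in MKN-45 (-0.026 in HCC827, not called). HPGD, which inactivates prostaglandins, rose by 4.76 in EBC-1 and by 0.73 in MKN-45. CYP1B1 rose in EBC-1 (2.14) and in HCC827 (1.16). The other genes among the 10 largest rises were SPINK1 (3.97), BNIP5 (3.97), MTURN (3.95), PIK3IP1, SELENOP, a selenium transport protein gene (3.52), TMED6 (3.41) and TP53INP1 (3.39). HCC827 DMSO levels of GSTA1, GSTA2, UGT2B15, BNIP5, SELENOP, TMED6 and PIK3IP1 lay below the array median there, and those of MTURN (9.12), SPINK1 (7.67) and TP53INP1 (7.60) above it. BNIP5 and TMED6 lay below it on every DMSO array and every HCC827 array. Both passed the filter only through treated arrays of EBC-1 and MKN-45. SPINK1 had DMSO means of 3.36 in EBC-1 and 4.27 in MKN-45, below the array medians. The sizes of the contrasts of BNIP5, TMED6 and SPINK1 therefore depend on low readings. TMED6 rested mainly on MKN-45 (5.38, with 1.34 in EBC-1).

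In HCC827 most acute phase genes rose. Of 17 tested acute phase and STAT3 target genes, 15 rose in HCC827 and 0 fell, against 18.7% and 19.4% of all genes, with a median of 0.86. The medians were 0.09 in EBC-1 and 0.02 in MKN-45, and in the contrast 11 of 17 were lower (27.8% of all genes) and 3 higher, with a median of -0.96. This list held genes already known from these data to rise in HCC827, so its count is a description.

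SAA1, serum amyloid A, was read at 2.93, 2.82 and 2.76 with DMSO and 2.89, 3.10 and 2.69 with SGX-523 in EBC-1. It was read at 2.58, 2.79 and 2.71 with DMSO and 2.79, 2.83 and 2.73 with SGX-523 in MKN-45. The HCC827 values were 5.68, 6.17 and 5.89 with DMSO and 8.07, 8.11 and 7.99 with SGX-523. All HCC827 values with SGX-523 lay above those with DMSO, and both MET-dependent lines stayed below their array medians. The contrast was -2.07 ± 0.16 (SE) (adjusted p = 1.84e-11). SAA2, whose sequence is close to that of SAA1, rose by 2.15, the fibrinogen chain genes FGG and FGB by 1.95 and 1.60, and the protease inhibitor gene SERPINA3 by 1.54. The complement gene C3 rose by 1.17. In EBC-1 and MKN-45 the DMSO means of SAA1, SAA2, FGG and FGB lay between 2.69 and 3.25, below the array medians. In HCC827 the DMSO means of SAA2 (4.90), FGG (4.91), C3 (5.17) and SERPINA3 (4.51) also lay below it, and SAA2, FGG and C3 passed the filter only through the treated HCC827 arrays.

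LCN2, which binds siderophores, fell in EBC-1 and rose in the other lines, with responses of -0.84 in EBC-1, 0.82 in MKN-45 and 1.55 in HCC827. Its MKN-45 DMSO mean of 3.97 lay below the array median, so the size of that rise depends on low readings. CFB and STAT3 rose in all 3 lines, with contrasts of 1.75 and 0.44. OSMR, a receptor chain for oncostatin M, fell by 0.84 and 1.90 in the MET-dependent lines and rose by 0.45 in HCC827. IL6R, the interleukin 6 receptor gene, rose in EBC-1 (0.54) and MKN-45 (1.61) with no call in HCC827 (-0.18). Its DMSO means of 4.05 in EBC-1 and 3.78 in MKN-45 lay below the array medians.

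Chemokine and NF-kB target genes also rose in HCC827, in 13 of 17 (18.7% of all genes), and 10 of 17 were lower in the contrast (27.8%) and 4 higher. CXCL8, the neutrophil chemokine interleukin 8, fell by 3.90 in EBC-1 and by 0.49 in MKN-45 and rose by 1.03 in HCC827 (contrast -3.22 ± 0.16 (SE)). CCL20 rose in MKN-45 (2.80) and HCC827 (1.80), with -0.072 in EBC-1. TNFAIP3, a brake on NF-kB, rose in MKN-45 (2.10) and fell in HCC827 (-0.35).

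HCC827 led in 950 genes (7.77%), 414 of them rises (3.39%) and 536 falls (4.39%), which means a call there and in the contrast, no call in that direction in either MET-dependent line, and no overlap of HCC827 arrays with and without SGX-523. Beside 4 acute phase genes and EGR1, the 8 largest rises that HCC827 led were those of AGR2, S100A9 and LY6D. AGR2, an endoplasmic reticulum disulfide isomerase gene, rose by 1.73 in HCC827 and fell by 0.16 and 0.38 in EBC-1 and MKN-45, where its DMSO means of 10.43 and 13.43 were high. S100A9, a subunit of calprotectin, rose by 1.66 in HCC827, and its DMSO means in EBC-1 and MKN-45 (3.39 and 3.33) lay below the array medians. The 8 largest falls led by HCC827 were ABCC9 (-1.41), TRAF1 (-1.31), PTX3 (-1.10), MMP9 (-1.07), KLHL21 (-0.98), COL12A1 (-0.94), TNFRSF9 (-0.90) and SLC9A2 (-0.82). MMP9 had DMSO means of 3.81 in EBC-1 and 4.03 in MKN-45, below the array medians, which left little room for a fall there. A call in HCC827 and in neither other line was found for 262 genes (2.14%), 142 higher (1.16%) and 120 lower (0.982%), and this count ranged from 140 under a filter at the 75th percentile of the array to 442 with a pseudocount of 64.

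**Figure D5:**
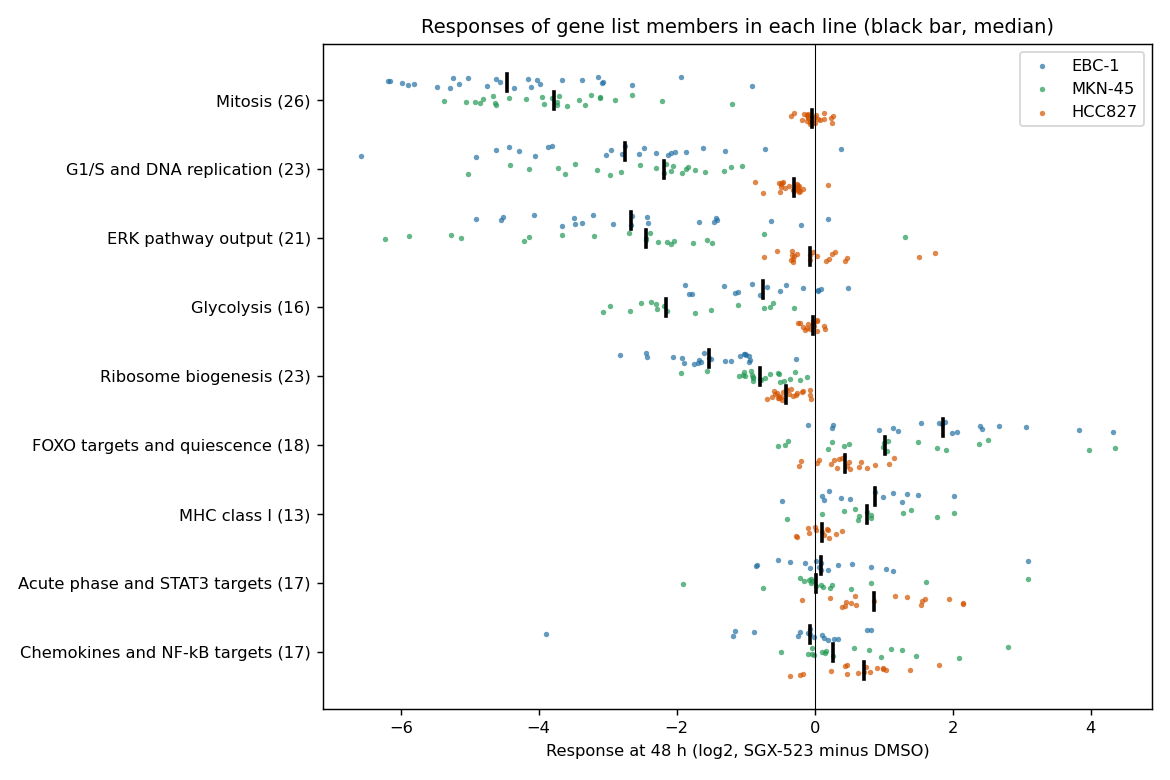
Each point is 1 gene of the list named on the y axis (number tested in brackets), placed at its response at 48 h in log2 units on the x axis, with 1 row of points per line and a black bar at the median. Mitosis and ERK output separate the MET-dependent lines from HCC827, ribosome biogenesis falls in all 3, and acute phase genes have medians of 0.09 in EBC-1, 0.02 in MKN-45 and 0.86 in HCC827.

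Glycolysis set the MET-dependent lines apart from HCC827, with MKN-45 ahead of EBC-1. All 16 genes tested were lower in the contrast (27.8% of all genes), with a median of -1.21. In MKN-45 16 of 16 fell (30.4% of all genes), with a median of -2.16. In EBC-1 12 fell and 1 rose (32.8% and 38.0% of all genes), with a median of -0.74. In HCC827 2 rose and 4 fell, against 18.7% and 19.4% of all genes, with a median of -0.03. ENO1, enolase, had responses of -1.89 and -2.52 in EBC-1 and MKN-45, and PKM, pyruvate kinase, of -1.82 and -2.67, with HCC827 at -0.019 and -0.069, neither called. SLC2A1, the glucose transporter GLUT1, had a contrast of -2.28. HK2, hexokinase 2, fell in MKN-45 (-2.96) and rose in EBC-1 (0.48).

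Of 11 hypoxia response genes, 7 were lower and 3 higher in the contrast (27.8% and 35.8% of all genes). BNIP3, a mitophagy receptor gene, had responses of -0.71, -2.15 and 0.11, and ANKRD37 of -1.89, -1.93 and 0.20. PDK1, which closes the entry of pyruvate into mitochondria, had a contrast of -1.52, and P4HA1, a collagen prolyl hydroxylase gene, of -1.11. NDRG1 and VEGFA were higher in the contrast (0.27 and 0.44).

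Receptors and ligands of the MET and ERBB families did not share a direction. Of 16 tested, 7 were higher and 5 lower in the contrast, near the 35.8% and 27.8% of all genes, with a median of 0.14. ERBB3, a receptor that recruits PI3K, rose by 3.88 in EBC-1, 1.78 in MKN-45 and 0.74 in HCC827, and its contrast was 2.09 ± 0.059 (SE) (adjusted p = 2.23e-20). GAB1, the docking protein of MET, rose by 1.40 and 1.11, with 0.10 in HCC827. The ligand gene EREG fell by 2.93 and 2.01, and ERRFI1, a feedback inhibitor of EGFR, by 1.08 and 1.67, while ERRFI1 rose by 0.12 in HCC827. EGFR was not called in the contrast (-0.13, adjusted p = 0.0581), since it rose in EBC-1 (1.21) and fell in MKN-45 (-1.34), and with the mean of all its probe sets the contrast was 0.188 (adjusted p = 0.00821).

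Cell cycle inhibitors, D cyclins and pocket proteins were split, with 7 of 12 higher and 3 lower in the contrast (35.8% and 27.8% of all genes). CDKN1C, the CDK inhibitor p57, rose in all 3 lines, with a contrast of 1.34. CDKN1B, the inhibitor p27, rose by 1.46, 0.50 and 0.44. CDKN2B rose in EBC-1 (2.36) but not in MKN-45 (-0.12, not called), where its DMSO mean of 3.12 lay below the array median. CDKN1A, the inhibitor p21, rose in MKN-45 (0.97) and fell in HCC827 (-0.26).

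Of 15 BCL2 family genes, 6 were higher and 4 lower in the contrast, near the shares of all genes (35.8% and 27.8%), and the list median of 0.03 turned to -0.00363 when each array was centred on its median. The BH3-only genes, whose proteins trigger apoptosis, accounted for the larger values. BCL2L11, which encodes BIM, rose by 1.36, 1.59 and 0.23 in EBC-1, MKN-45 and HCC827. BMF rose by 1.41, 3.45 and 0.84, and BBC3, which encodes PUMA, by 1.69, 1.35 and 0.57. The DMSO means of BMF in EBC-1 (4.61) and MKN-45 (4.80) lay below the array medians, so those sizes depend on low readings. PMAIP1, which encodes NOXA, fell by 2.21 and 0.36 in the MET-dependent lines and rose by 0.35 in HCC827. BCL2 and MCL1 were not called in the contrast (-0.064 and -0.088).

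Most MHC class I and lysosomal genes were higher in the contrast. Of 13 MHC class I genes, 11 were higher and 1 lower in the contrast (35.8% and 27.8% of all genes), with a median of 0.75. In EBC-1 and in MKN-45 alike 11 rose and 1, the transporter gene TAP2, fell. Over all genes 38.0% rose and 32.8% fell in EBC-1, and 41.1% rose and 30.4% fell in MKN-45. HLA-E rose by 1.50 in EBC-1, 2.03 in MKN-45 and 0.20 in HCC827. ERAP1, which trims peptides for loading, and NLRC5, a transactivator of the pathway, had contrasts of 1.22 and 0.98. The HLA genes resemble each other in sequence, so their probe sets may share signal. Of 18 lysosome and autophagy genes, 13 were higher and 1 lower, with a median of 0.65, while 15 rose and 2 fell in EBC-1 and 15 rose and 1 fell in MKN-45. GLA, a lysosomal galactosidase gene, fell in all 3 lines. CTSA, a lysosomal carboxypeptidase gene, rose by 2.06 and 1.08 (0.0083 in HCC827, not called), and SQSTM1, the autophagy receptor p62, by 0.92 and 1.47. GABARAPL1, an autophagosome gene, rose in all 3 lines, by 1.87, 1.45 and 0.86.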

How the data were processed

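Per the labels' protocols, total RNA was extracted with TRIZOL, purified on columns and amplified with biotin by a 3 prime in vitro transcription kit. The authors deposited log2 values, 1 for each probe set on each array, which ran from 1.87 to 14.38. The tool named per the submitters' processing notes is MAS5, without a role, and how they were normalized was not given in the sources used here. No counts exist, so the number of arrays limits the precision.

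Of 49395 probe sets, 44988 had 1 gene in the platform annotation, 1832 several and 2473 none, and 102 were controls. Symbols were updated through Entrez IDs, and 44961 matched RefSeq. Probe sets that reached the median of their array on at least 3 of the 18 arrays were kept, and a gene with several was read from that of highest mean, which left 12219 genes. The deposited log2 values were fitted with 6 group means in limma 3.58.1 in R 4.3.3 (lmFit and eBayes, prior variance following intensity), which left 12 residual degrees of freedom. Adjustment was by Benjamini-Hochberg over all genes of a comparison at a threshold of 0.05, and "called", "rose" and "fell" refer to it. The labels do not say that the replicates came from separate cultures beyond the word biological, and p-values measure the spread between these arrays. Median standard errors were 0.079 for a response and 0.096 for the contrast.

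Named genes were MET, MST1R, EGFR and ERBB3 and the top of 5 rankings. These took the 10 largest contrasts each way that both MET-dependent lines shared, the 10 largest common responses each way, the 8 largest each way led by HCC827, the 5 largest opposite responses each way, and 4 members of every gene list, taken by smallest adjusted p. The first 3 rankings required treated and DMSO arrays that did not overlap. Other list members are named only as examples within the description of their list, chosen after their values were seen. The comparison, members and lists were chosen with earlier results of these data known.

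On simulated data for the contrast, with 12219 genes and 50 changed at each size, 44%, 78%, 98% and 100% of changes of 1.25, 1.5, 2 and 4-fold were recovered, and 2.44% of calls were false. The simulation had independent normal noise, no response in HCC827 and equal changes in EBC-1 and MKN-45. Far fewer genes changed in it than were called in the data, so these rates need not hold for the data. Promoters came from RefSeq (GRCh38.p14) and matched 10005 of the genes tested. Alternatives were quantile normalization, centring, a pseudocount of 64, no filter, a filter at the 75th percentile, all 27 arrays in the fit, no intensity trend, a fit per line, a block for the replicate number, averages over all probe sets of a gene, array weights, and each array left out in turn. RNA quality was compared by exact two-sided permutation.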

Additional observations from a re-analysis of the deposited data

Results flagged for a closer look

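In 5 genes named by the rules EBC-1 and MKN-45 were called in opposite directions, so their mean in the contrast describes neither line. The difference between the EBC-1 and MKN-45 responses, tested in the same fit with limma, was -2.26 for CXCL1, 2.86 for DDIT4, 2.56 for EGFR, 1.19 for IRF9 and -1.66 for LCN2, with adjusted p between 9.89e-23 and 9.94e-13. CXCL1, a neutrophil chemokine, fell in EBC-1 (-1.16) and rose in MKN-45 (1.10). DDIT4, an inhibitor of mTOR, rose in EBC-1 (0.35) and in HCC827 (0.51) and fell in MKN-45 (-2.50). IRF9, a transcription factor of the interferon response, rose in EBC-1 (1.06) and fell slightly in MKN-45 (-0.13). The MKN-45 rise of LCN2 started from a DMSO mean of 3.97, below the array median.

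In 27 genes named by the rules both MET-dependent lines were called one way and HCC827 the other, 7 of them higher in the MET-dependent lines and 20 lower, with the contrast as the test of the difference. Among genes higher there it was 1.79 for KLHL21, 1.98 for RCBTB2, 2.31 for FSD1L, 1.75 for CC2D2A, 3.03 for PCLO, 1.50 for TNFAIP3 and 1.79 for TP53I3. Of the lower ones it was -5.30 for TOP2A, -5.20 for DUSP6, -4.94 for FOS, -4.80 for EGR1, -4.00 for CCNB2, -4.00 for MYC, -3.90 for EMP1, -3.22 for CXCL8, -3.18 for GCNT3 and -2.71 for GDF15. For the others it was -2.28 for ALDOC, -2.01 for AGR2, -1.82 for OSMR, -1.80 for TPM2, -1.79 for PGK1, -1.79 for SLC7A11, -1.63 for PMAIP1, -1.53 for BNIP3, -1.49 for ERRFI1 and -0.998 for BID. All 27 had adjusted p of 1.51e-11 or less in limma. With the 24 h arrays in the fit, 162 genes in place of 401 were called in opposite directions. Groups of 3 arrays were too small to look, gene by gene, for a single array far from the others.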

How the results depend on the processing

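Contrasts were rerun for MET, MST1R, EGFR and ERBB3 and for genes from the shared, HCC827-led and gene list rankings. Genes named only by the common or opposite rankings had their responses in each line rerun, and all kept direction and side of the threshold. Other list members named as examples were not rerun gene by gene. Under all alternatives that could be run, each rerun contrast kept its direction and side of the threshold, except for EGFR, NAPSA and NKX2-1. None was called as reported, and their contrasts passed it in 8, 6 and 1 settings, with the sign turned for EGFR in 1 of the 8 and for NKX2-1 in its single one. EGFR gave 0.188 (adjusted p = 0.00821 in limma) with the mean of all probe sets, and NKX2-1 gave -0.15 (adjusted p = 0.0325) with a pseudocount of 64. A pseudocount of 64, which damps changes at low signal, lowered the counts of at least 2-fold changes to 255 higher and 431 lower in the contrast, 516 and 668 in EBC-1, 609 and 539 in MKN-45, and 21 and 0 in HCC827. Genes called in HCC827 and in neither other line became 442 with it, 396 without a filter and 140 with a filter at the 75th percentile, under which 1 gene was at least 2-fold lower in HCC827. With all 27 arrays in the fit, 2761 genes were called in HCC827, 1434 higher and 1327 lower. In the same direction in all 3 lines were 1363, 722 higher and 641 lower, and 162 were called in opposite directions. The HCC827 SGX-523 24 h arrays, part of this fit alone, had medians over the kept probe sets of 7.275, 7.266 and 7.033. The cause of the lower counts was not tested. Leaving out single arrays gave between 4 and 11 genes at least 2-fold lower in HCC827, in place of 7, with 4 without HCC827 DMSO replicate 1, 2 or 3 and 11 without the first replicate of HCC827 SGX-523 48 h. The contrast was called for 7419 to 7751 genes with an array left out, and the share of higher calls lay between 53.3% and 56.7% over all other settings. In HCC827, the mitotic list had 6 falls with the mean of all probe sets and 5 rises and 5 falls with the pseudocount. The smaller hypoxia list had 3 rises there with all 27 arrays.

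The replicate numbers of the labels did not pair the samples. Deviations of same-numbered DMSO and SGX-523 arrays from their group means correlated between -0.0716 and 0.136, and not every array correlated best with its own number. With the number as a block the contrast was called for 7859 genes in place of 7766, and 2375 in place of 2280 were called the same way in all 3 lines.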

Other observations

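Several other gene groups differed between the MET-dependent lines and HCC827. Of 21 ATF4 and amino acid response genes, 14 were lower and 3 higher in the contrast, against 27.8% and 35.8% of all genes, with a median of -0.91. PSAT1, an enzyme of serine synthesis, fell by 3.79 in EBC-1, 1.04 in MKN-45 and 0.22 in HCC827, and MTHFD2, a mitochondrial folate enzyme gene, had responses of -1.70, -1.88 and -0.043, the last not called. NUPR1, a stress regulator, rose in all 3 lines, most in MKN-45 (5.01). Of 15 oxidative phosphorylation genes, 12 were lower and 1 higher (27.8% and 35.8% of all genes), with a small median of -0.30, and CYC1, cytochrome c1, fell in all 3 lines (-0.78, -0.82 and -0.24). Of 12 invasion and matrix adhesion genes, 9 were lower and 3 higher, against the same shares. PLAUR, the urokinase receptor gene, and the integrin gene ITGA2 had contrasts of -1.65 and -1.56, and CD44 fell in EBC-1 (-2.55) but was not called in MKN-45 (-0.014).

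Of 15 p53 target genes, 9 were higher and 5 lower in the contrast (35.8% and 27.8% of all genes), with TP53I3 at 1.79 and SESN1 at 1.58. Of 16 interferon response genes 7 were higher and 3 lower, with IRF1 at 1.27, and of 11 cholesterol synthesis genes 4 and 3, close to the shares of all genes, with FDPS at -0.73 and MSMO1 at 0.65. CDX2, the intestinal lineage factor, rose in EBC-1, a lung line, by 3.06 and in MKN-45 by 2.46, with -0.077 in HCC827 (not called). TFF1, a gastric trefoil peptide gene, fell in MKN-45 by 3.76. Of 3 intestinal and gastric markers tested, 2 were higher and 1 lower in the contrast, and of 4 lung markers none was called. LUM rose in EBC-1 (2.02), and of 2 fibroblast markers tested 1 was higher in the contrast. The single leukocyte marker tested, CD14, was lower (-1.11), and the single endothelial marker, VWF, was not called (-0.16). Of 5 epithelial markers, 3 were lower and 1 higher, with the keratin genes KRT18 and KRT8 at -1.69 and -1.45. Of 8 reference genes, 5 were lower and 2 higher, with ACTB at -1.57 and HPRT1 at -1.54.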
